A study of Mus musculus with 6 samples.

Results

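Ribosome biogenesis factors are the nucleolar proteins that transcribe, modify, cut and assemble ribosomal RNA into ribosomal subunits. The 45 genes described here were chosen by symbol from the deposited mRNA table, which lists 22298 genes, and all 45 were found and passed the filter on low counts. They were measured by RNA sequencing of total RNA in GC-1spg, an immortalised mouse germ cell line taken to resemble type B spermatogonia. One group of 3 libraries (si-METTL3) came from cells given an siRNA against Mettl3, and the other 3 libraries (si-NC) from cells given a control siRNA, all collected 48 h after transfection at 60% density in DMEM with 10% serum. In what follows, controls are the si-NC libraries and knockdown the si-METTL3 libraries. The labels call the controls untreated, yet describe a control siRNA, and no label says that replicates were separate cultures, so p-values measure the spread between these libraries, which may be technical. Mettl3 encodes the methyltransferase that places N6-methyladenosine in mRNA.

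RNA polymerase I transcribes the ribosomal RNA precursor in the nucleolus. Box C/D and H/ACA small nucleolar ribonucleoproteins (snoRNPs) then guide its chemical modification, and the small subunit processome, built around the U3 snoRNP, folds and cuts the part that becomes the small subunit. Separate sets of factors assemble the large subunit and finish the small subunit precursor in the cytoplasm, and genes of all these steps are known targets of the transcription factor MYC, which binds the E-box letters CACGTG.

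Because MYC targets are often marked by that motif close to the start of transcription, the windows of the RefSeq promoter table (GRCm38.p6, from 250 bases before to 50 after the start) were searched on both strands for CACGTG, a palindrome. The table held 40 of the 45 members, and Bop1, Fbl, Npm1, Rrp12 and Rrs1 were not matched. The motif was in 8 of the 40 (20%, Wilson 95% interval 10.5 to 34.8%), in 11.5% of the 10307 tested genes with a window and in 7.15% of all 32851 windows. The 4 members with the motif that were also lower in si-METTL3 are printed here on the plus strand, with the motif in capitals. The windows lie at chr11:3963965-3963994 (Pes1), chr11:74898092-74898121 (Tsr1), chr6:125131793-125131858 (Nop2) and chr1:34439678-34439743 (Imp4).
Pes1: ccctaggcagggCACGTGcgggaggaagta
Tsr1: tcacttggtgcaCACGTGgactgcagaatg
Nop2: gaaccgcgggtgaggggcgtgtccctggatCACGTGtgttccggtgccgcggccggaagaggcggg
Imp4: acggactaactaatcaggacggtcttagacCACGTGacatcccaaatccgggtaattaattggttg
The motif began 2 bases after the start in Pes1, 24 after it in Tsr1, 60 before it in Nop2 and 121 before it in Imp4. It was in 4 of the 13 matched members that were lower and in 4 of the other 27, namely Utp4, Ltv1, Wdr43 and Utp20. A match is a run of letters and not a measured binding site. With the 250 bases before the start alone, 2 of 40 members (5%) held the motif against 9.68% of tested genes. In the full window the members' interval of 10.5 to 34.8% included the 11.5% of tested genes. A higher share among members was thus not shown.

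The mRNA table held between 22146057 and 37698956 counts per library, and a member had between 425 and 42619 counts in a library. Mettl3 itself, the targeted gene, was at 17.3, 19.2 and 18.6 CPM (counts scaled to the size of the library) in the controls and at 4.44, 5.97 and 5.52 after knockdown, a log2 change of -1.79 (SE 0.14, edgeR adjusted p = 0.000579, n = 3 per group). The labels print 1 siRNA sequence for both the METTL3 and the control siRNA, so which sequence the controls received is not known from them. It is shown here because a guide strand can also lower other mRNAs through its seed, and the capitals mark bases 12 to 18 of this strand, which are the site paired by bases 2 to 8 of the guide.
siRNA: gctaccgtatgGGACATTa
None of the 45 members held all 19 bases (0 of 45). The site GGACATT was in the longest coding transcript of 3 of the 15 members that were lower, of 8 of the other 30, and of 23.9% of 13014 tested genes. Several defining germ line genes were near or at 0 in these cells: 11 of 25 listed genes, Dazl among them, had at most 3 counts in any library, and Mael, Nanos2, Sall4, Sohlh1, Rhox13 and Tex101 were at 0 in all 6. Others on that list were expressed, and 7 of the 25 averaged 1 CPM or more. The 25 together ranged from 75.5 to 90.6 CPM in the controls and from 85.6 to 92.8 after knockdown. Of the 10 tested, 5 had negative log2 changes (median -0.08). Lung markers (16 genes) together reached 10.3, 9.25 and 74.6 CPM in the controls but 109, 107 and 74.5 after knockdown, and blood markers (5 genes) 0.456, 0.796 and 12.1 against 18.8, 15.9 and 12.4. Macrophage and endothelium markers (14 genes) together ranged from 16.4 to 23.8 CPM in the controls and from 25.2 to 28.1 after knockdown, and Sertoli and Leydig cell markers (15 genes) from 230.2 to 251.2 and from 310.5 to 332. Most of that last sum was Wt1, with means of 167 and 255 CPM, while 4 of the 7 genes tested on that list had negative log2 changes (median -0.17). All 12 of 12 listed interferon response genes were lower in si-METTL3 (median log2 change -3.65). The part of these differences in the results that follow was not tested.

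Of the 45 members, 15 were lower in si-METTL3 and 0 were higher at an edgeR adjusted p under 0.05, which is 33.3% of them beside 10.2% lower and 8.67% higher among the 13082 genes tested. The median log2 change was -0.27 over the members and 0.03 over all tested genes. At an unadjusted p under 0.05 there were 25 members, all 25 lower, where 35.7% of tested genes passed in either direction. The changes were small: the 15 were 1.24 to 1.58-fold lower, and 3 members reached 1.5-fold. In 23 members every si-METTL3 library lay below every si-NC library (51.1%, against 21.3% of all genes), in 1 member, Ddx18, every one lay above (20.2% of all genes), and in 21 the groups overlapped. Relative to the si-NC mean, the median member stood at log2 values of 0.04, -0.11 and 0.02 in the controls and at -0.26, -0.30 and -0.23 after knockdown. The 3 si-METTL3 medians were thus alike and all below those of the controls. Single members were less alike: si-METTL3 replicate 1 was the highest of its group in 25 members and the lowest in 12. In bulk RNA, fewer cells of a type and less RNA per cell cannot be told apart.

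**Figure D1:**
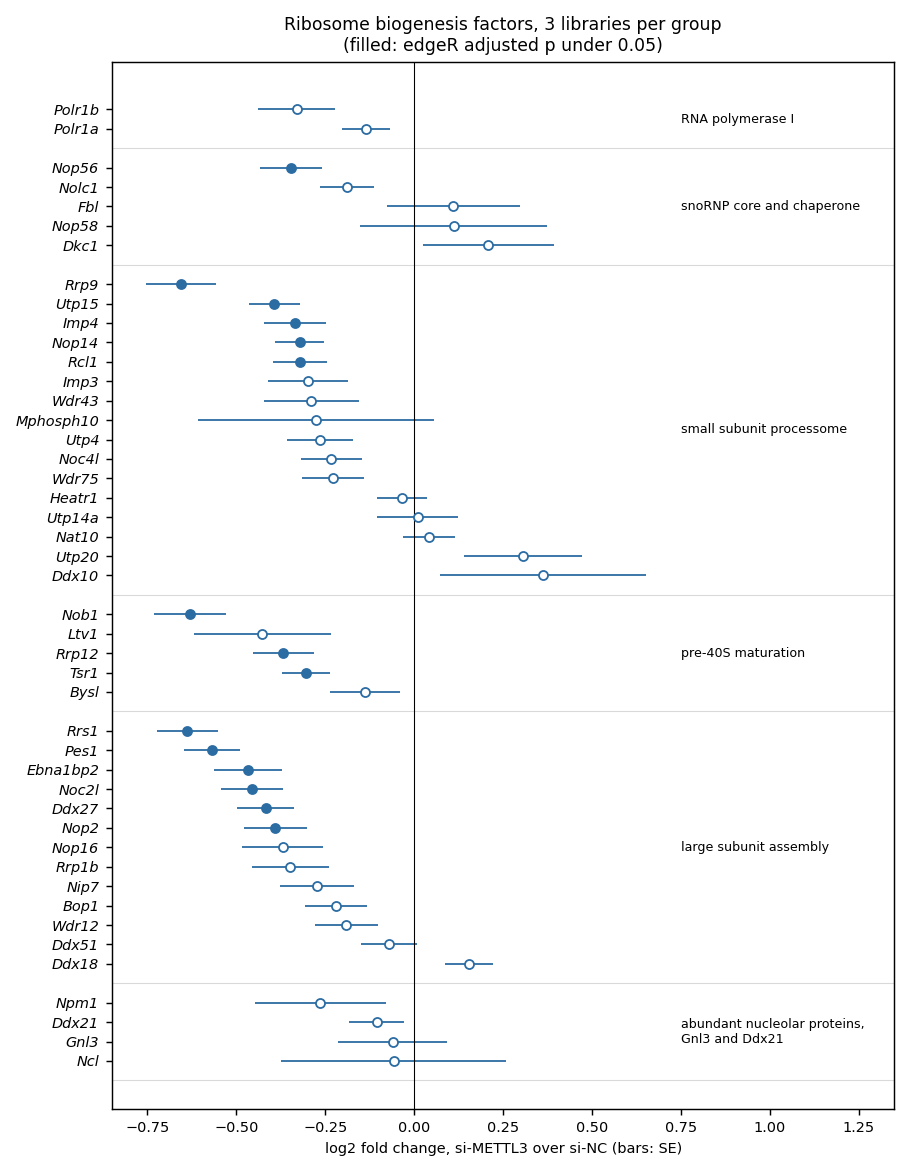
Log2 fold change of each of the 45 members in si-METTL3 over si-NC on the horizontal axis, with the standard error as a bar, grouped by role, from 3 libraries per group. Filled points passed an edgeR adjusted p under 0.05: the 15 filled points all lie below 0, and the RNA polymerase I genes and the abundant nucleolar proteins have none.

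The number of calls depended strongly on single libraries. Without si-NC replicate 2 it was 26 lower and 2 higher (Utp20 and Ddx10), where 18.9% of all genes were lower and 17.9% higher. It was 4 when control replicate 1 was dropped (2.91% of all genes lower), 4 without knockdown replicate 2 (2.72%) and 4 without knockdown replicate 3 (2.63%). Rrs1, Pes1, Rrp9 and Nob1 were lower in all 6 fits with 1 library dropped, and the other 11 in 3 or fewer.

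Large subunit assembly held 13 members, 6 of them lower, with a median log2 change of -0.37. Rrs1, which helps bring the 5S ribonucleoprotein into the large subunit precursor, lies at chr1:9545408-9547455 (GRCm38, plus strand). Its level was 162, 141 and 157 CPM in the controls and 106, 91.6 and 98.7 after knockdown. The lowest control was well above the highest si-METTL3 library, and the mean fell from 154 ± 10.9 to 98.7 ± 7.07 CPM (SD, n = 3), a log2 change of -0.64 (SE 0.09, edgeR adjusted p = 0.00511).

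Pes1 and its partners Bop1 and Wdr12 form the PeBoW complex, which large subunit rRNA processing needs. Pes1 (chr11:3963975-3980004, plus strand) was at 373, 331 and 386 CPM in the controls and at 253, 247 and 235 after knockdown. Its groups were apart, with a log2 change of -0.57 (SE 0.08, edgeR adjusted p = 0.00536). The other subunits of the complex did not pass: Bop1 was at 221, 188 and 231 CPM against 186, 184 and 179 (log2 change -0.22, adjusted p = 0.122), with every si-METTL3 library below every control. Wdr12 was at 83.6, 88.2 and 79.4 CPM against 71.7, 67.6 and 80.7 (-0.19, adjusted p = 0.172), and its groups overlapped. Whether Pes1 differs from its partners was not tested.

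Noc2l, a partner of the Noc complexes that escort the large subunit precursor, was at 305, 270 and 331 CPM in the controls and at 228, 216 and 216 after knockdown (log2 change -0.46, SE 0.09, edgeR adjusted p = 0.0155). Ddx27, a DEAD-box RNA helicase, was at 319, 284 and 322 against 246, 219 and 228 CPM (-0.42, adjusted p = 0.0157). Ebna1bp2, an assembly factor, was at 69.7, 57.6 and 63.0 against 45.3, 43.6 and 48.7 CPM (-0.47, adjusted p = 0.0187). In all 3 the groups did not overlap. Nop2, the rRNA cytosine methyltransferase whose promoter window is printed above, was at 379, 330 and 374 CPM against 302, 260 and 264 (-0.39, adjusted p = 0.0254), again without overlap. Nop16 (-0.37, adjusted p = 0.0609) and Rrp1b (-0.35, adjusted p = 0.0651) missed the threshold with groups apart, and Nip7 (-0.27, adjusted p = 0.11) missed it with groups that overlapped. The helicase Ddx51 was nearly level (-0.07, adjusted p = 0.547). Ddx18, another helicase, was at 137, 130 and 143 CPM in the controls and at 156, 147 and 153 after knockdown. It was the member with every si-METTL3 library above the controls, but its log2 change of 0.15 did not pass (adjusted p = 0.146).

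**Figure D2:**
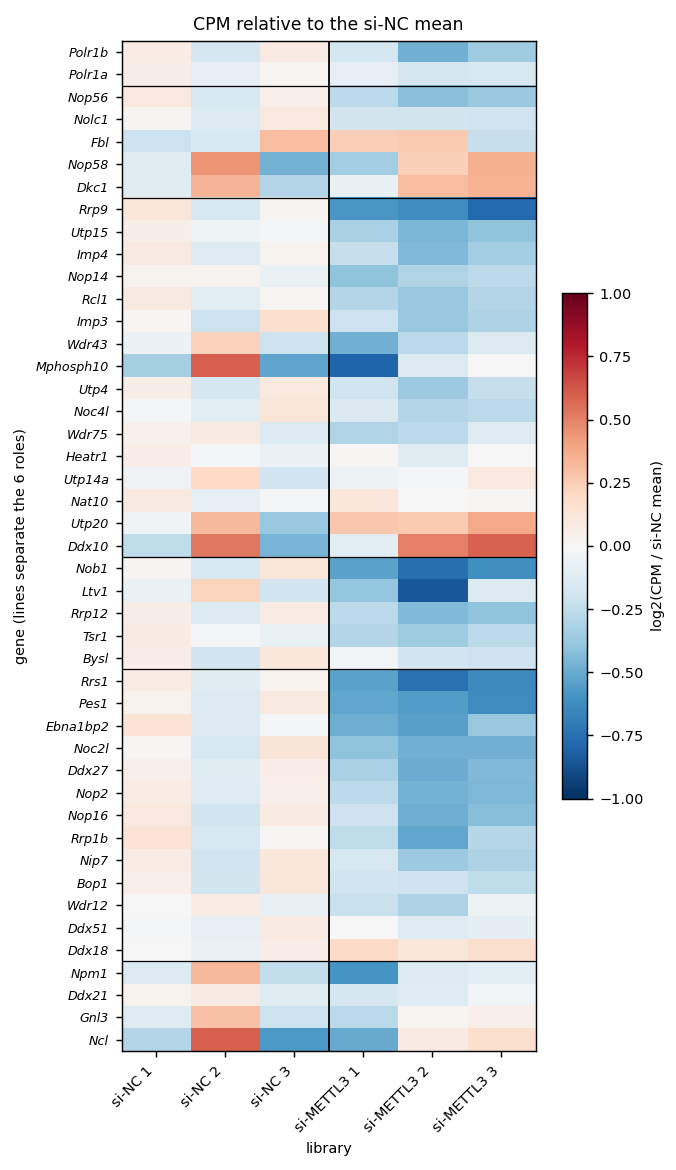
Each member's CPM in each of the 6 libraries, as log2 of its ratio to the si-NC mean (red above, blue below), with members in rows by role and libraries in columns. The si-METTL3 columns are mostly blue, with 39, 37 and 35 of 45 members below the si-NC mean. In the controls 16, 30 and 20 members were below it. The column of si-NC replicate 2 is thus mostly blue too, though red for Ncl, Mphosph10, Ddx10 and Nop58.

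The 5 members of late small subunit maturation had a median log2 change of -0.37, and 3 were lower. Nob1, the endonuclease that makes the mature end of the small subunit rRNA, lies at chr8:107412486-107425051 (minus strand). It was at 79.0, 69.2 and 84.3 CPM in the controls and at 53.5, 45.9 and 50.7 after knockdown. The groups were well apart, and the log2 change was -0.63 (SE 0.10, edgeR adjusted p = 0.00901). Rrp12, an export and maturation factor, was at 335, 293 and 338 against 269, 237 and 243 CPM (-0.37, adjusted p = 0.0275). Tsr1, a GTPase-like factor that holds the precursor in an inactive state, was at 309, 288 and 279 against 239, 228 and 242 CPM (-0.31, adjusted p = 0.0234). Neither overlapped between groups. Bysl (-0.14, adjusted p = 0.35) and Ltv1 (-0.43, adjusted p = 0.16) did not pass, and Ltv1 was spread widely, with 32.5, 39.7 and 29.8 CPM against 25.9, 18.9 and 30.9.

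The small subunit processome was the largest role, with 16 members, 5 of them lower and a median log2 change of -0.27. Rrp9, a U3 snoRNP protein (chr9:106475963-106485424, plus strand), had the largest fall of the 45. Its level was 86.0, 71.2 and 80.9 CPM in the controls and 53.1, 51.6 and 46.3 after knockdown, with no overlap (log2 change -0.66, SE 0.10, edgeR adjusted p = 0.00714). Utp15, of the subcomplex tied to rRNA transcription, was at 112, 104 and 106 against 85.5, 77.9 and 81.1 CPM (-0.39, adjusted p = 0.0128). Imp4, which helps U3 pair with the precursor, was at 219, 189 and 211 against 176, 152 and 163 CPM (-0.33, adjusted p = 0.0373). Both were apart between groups. Nop14 was at 291, 290 and 271 against 214, 231 and 236 CPM (-0.32, adjusted p = 0.0215). Rcl1 was at 144, 126 and 137 against 111, 104 and 111 CPM (-0.32, adjusted p = 0.0282). Imp3 and Mphosph10, the partners of Imp4, did not pass (-0.30 with adjusted p = 0.107, and -0.28 with adjusted p = 0.579).

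Several processome genes were spread widely among the controls. Utp20, a large scaffold protein, was at 261, 334 and 205 CPM in the controls and at 321, 320 and 347 after knockdown (log2 change 0.31, adjusted p = 0.226). The helicase Ddx10 was at 24.5, 42.0 and 21.2 against 27.2, 41.4 and 44.0 CPM (0.36, adjusted p = 0.402). In both, si-NC replicate 2 was the highest control. Without it the changes became 0.50 (adjusted p = 0.0161) for Utp20 and 0.71 (adjusted p = 0.0426) for Ddx10, and neither passed in any of the other 5 fits with 1 library dropped. With counts corrected in each library for transcript length and GC content (the length and GC correction), Utp20 came to 0.043 (adjusted p = 0.799) and Ddx10 to 0.34 (adjusted p = 0.231). The other processome members did not pass: Utp4 (-0.26, adjusted p = 0.0876) and Noc4l (-0.23, adjusted p = 0.0999) had groups apart, while Wdr43 (-0.29), Wdr75 (-0.23), Heatr1 (-0.03), Utp14a (0.01) and the rRNA acetyltransferase Nat10 (0.04) overlapped.

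Neither RNA polymerase I gene passed the test with all libraries and uncorrected counts. Polr1a, the largest subunit, was at 421, 382 and 410 CPM in the controls and at 382, 359 and 362 after knockdown (log2 change -0.14, edgeR adjusted p = 0.188). Polr1b, the second subunit of the catalytic centre, was at 152, 128 and 152 against 127, 103 and 112 CPM (-0.33, adjusted p = 0.0732). Polr1b was apart between groups, and Polr1a overlapped. Both passed without si-NC replicate 2 (adjusted p = 0.0366 and 0.018). Both also passed with the length and GC correction, where Polr1a was at -0.36 (adjusted p = 0.0126) and Polr1b at -0.30 (adjusted p = 0.0133).

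Among the 5 snoRNP genes, the box C/D protein Nop56 was lower, and whether it differs from the rest was not tested. Nop56 was at 728, 610 and 703 CPM in the controls and at 568, 510 and 527 after knockdown (log2 change -0.35, SE 0.09, edgeR adjusted p = 0.0337). Its paralogue in the same particle, Nop58, was at 134, 197 and 104 against 114, 170 and 185 CPM (0.11, adjusted p = 0.788), and the methyltransferase of the particle, Fbl, was at 34.6, 36.3 and 49.9 against 47.8, 48.3 and 34.3 (0.11, adjusted p = 0.701). Both overlapped between groups. The H/ACA pseudouridine synthase Dkc1 (0.21, adjusted p = 0.447) and the chaperone Nolc1 (-0.19, adjusted p = 0.123) did not pass either.

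The abundant nucleolar proteins Ncl and Npm1, with Gnl3 (nucleostemin) and the helicase Ddx21, had 0 of 4 members lower with uncorrected counts, and 1, Ddx21, with the length and GC correction (-0.21, adjusted p = 0.0122). Ncl, or nucleolin, was at 761, 1414 and 629 CPM in the controls and at 658, 988 and 1047 after knockdown (log2 change -0.06, edgeR adjusted p = 0.912). Npm1, or nucleophosmin, was at 1021, 1407 and 947 against 745, 1021 and 1042 CPM (-0.26, adjusted p = 0.337). In both, si-NC replicate 2 was the highest of all 6 libraries and si-METTL3 replicate 1 the lowest of its group. Gnl3 (-0.06) and Ddx21 (-0.10) also overlapped. Npm1 has processed pseudogenes that could share its reads.

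**Figure D3:**
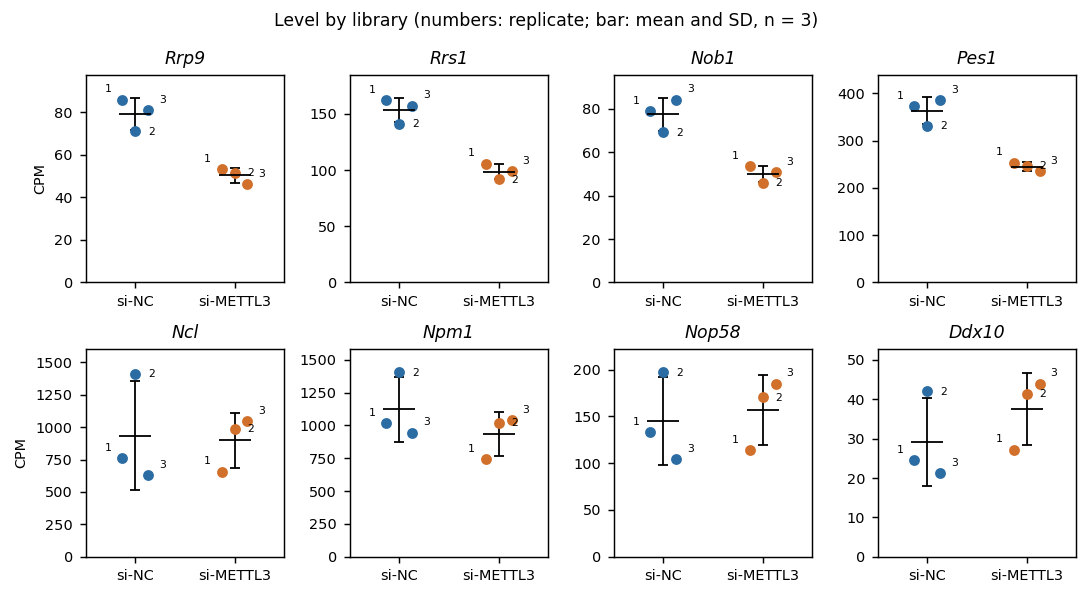
CPM by library for the 4 members that stayed lower whichever library was dropped (top row) and for 4 members with widely spread controls (bottom row), with the mean and SD of 3 libraries as bars and replicate numbers beside the points. The top row shows no overlap, and in the bottom row si-NC replicate 2 stands above the other controls.

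Compared per length, on the authors' FPKM scale, the members spanned a wide range in si-NC. Npm1 was the highest at 788 ± 191 (SD, n = 3), followed by Nop56 at 395 ± 34.6, Nop2 at 118 ± 7.37 and Pes1 at 104 ± 6.55. Ncl, at 102 ± 47.1, could not be placed apart from Pes1 or from Ddx27, at 94.9 ± 5.51. The lowest were Ddx51 at 10.6 ± 0.479, Mphosph10 at 8.47 ± 3.89 and Ddx10 at 7.66 ± 3.05, and these last 2 did not differ beyond their spread. The members together took 0.965, 1.06 and 0.912% of mRNA counts in the controls and 0.825, 0.858 and 0.880% after knockdown, with no overlap. This sum is weighted toward members with many counts, such as Npm1 and Ncl, whose groups overlapped. It does not show a fall across the members.

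The position of si-NC replicate 2 among the controls moved with the GC content of the transcripts. Of the 10 members under 45% GC in the longest coding transcript, 0 were lower, and si-NC replicate 2 was the highest control in all 10. Of the 22 at 50% GC or more, 10 were lower, and si-NC replicate 2 was the lowest control in 21. Between them, 5 of 13 were lower. The deviation of si-NC replicate 2 from the other controls had a Pearson r of -0.74 with GC content across the 45 members, and of -0.56 across 13014 genes. It had an r of -0.93 with the deviation of si-METTL3 replicate 1 from its group. These are descriptions across genes of the same libraries, and genes are not independent replicates. The median log2 change of members under 45% GC was -0.13 with all libraries and 0.13 without si-NC replicate 2, and at 50% GC or more it was -0.34 and -0.42. With the length and GC correction, the medians of the 3 GC classes came to -0.22, -0.24 and -0.21, and 18 members were lower and 1 higher (Ddx18, 0.31, adjusted p = 0.0034), where 12.8% of all genes were lower and 15.1% higher. Polr1a, Polr1b, Wdr43, Wdr75, Rrp1b and Ddx21 were lower with this correction and not without it, and Nop56, Nop14 and Rcl1 no longer passed. When the principal transcript of each gene was used instead of the longest, Nop56 (adjusted p = 0.0287) and Nop14 (adjusted p = 0.0442) passed again. The part of base composition in the difference between the groups was not tested.

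**Figure D4:**
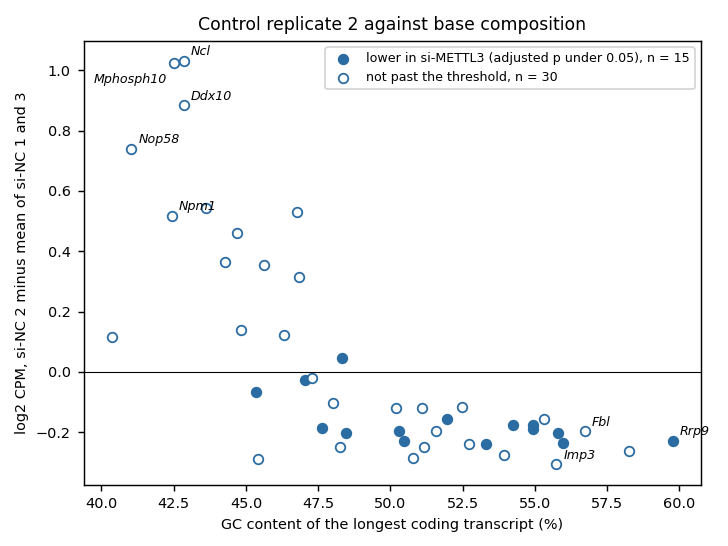
GC content of each member's longest coding transcript (horizontal axis, %) against the log2 CPM of si-NC replicate 2 minus the mean of si-NC replicates 1 and 3, with one point per member and filled points for the 15 lower in si-METTL3. Members under 45% GC all lie above 0, and those at 50% GC or more lie below it.

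The members that were lower shared few other features. Their median GC was 52.0% against 47.1% for the other members and 50.4% for all tested genes. GGACT, a frequent context of N6-methyladenosine, occurred a median of 1.03 times per kilobase of transcript in the lower members (range 0 to 1.93). The medians were 0.914 in the others (0 to 4.33) and 1.05 in all tested genes (0 to 7.66). Methylation itself was not measured here. In GENCODE M21, 7 members hold 21 snoRNA genes within their bounds on the same strand (Nop56, Nop58, Ncl, Gnl3, Wdr43, Tsr1 and Dkc1). Of the 7, 2 (Nop56 and Tsr1) were lower, where 33.3% of all members and 10.2% of all tested genes were lower. Among tested protein-coding genes 1.65% hold any snoRNA gene, and how many of those were lower was not counted. Exons of Imp4, Noc2l, Nop14, Nop56, Pes1, Rrp9 and Tsr1 overlap a gene on the opposite strand, by 616 bases for Tsr1 with Srr and 598 for Noc2l with Samd11. So do those of Bop1, Bysl, Dkc1, Gnl3, Heatr1, Polr1a, Rrp1b, Utp14a, Wdr12 and Wdr43, which did not pass. The longest of these were 398 bases for Utp14a and 361 for Bysl. How many of all tested genes have such an overlap was not counted. The sources used here do not say whether counting used strand, so reads from such pairs may be mixed.

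The authors' deposited table of fold changes and p-values had 17 members lower and 0 higher at its adjusted p under 0.05, where 6.44% of its 22298 genes were lower. The 22298 include 4631 genes at 0 in every library, so that share is not directly comparable with the 10.2% over the genes tested here. The 17 members held all 15 found here, with Nop16 and Rrp1b besides. In the authors' deposited table Pes1 had a log2 change of -0.55 and Rrs1 of -0.62.

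The deposited lncRNA table held 31 transcripts of 18 member genes, 4 of them at 0 in every library. Of the 18 tested, 0 passed an edgeR adjusted p under 0.05, where 0.733% of the table passed, and 2 had an unadjusted p under 0.05. These 2, named after their values were seen, were Ebna1bp2-202, with counts of 165, 140 and 114 against 0, 4 and 51 (log2 change -2.60, adjusted p = 0.315), and Npm1-205 (-0.82, adjusted p = 0.281).

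Further genes of the pathway were lower as well. Of 126 further biogenesis genes, 125 were tested, 41 were lower (32.8%) and 1 was higher, with a median log2 change of -0.25. Over all tested genes 10.2% were lower and 8.67% higher. The small subunit partners had 15 of 40 lower, the large subunit partners 14 of 46, the snoRNP partners 6 of 13 and the exosome and its co-factors 4 of 13. The RNA polymerase I factors had 2 of 13 (15.4%), near the share over all genes. Among those that passed, the largest falls were those of Nol10 (-0.90, edgeR adjusted p = 0.000798), Nle1 (-0.85, adjusted p = 0.00518) and Ngdn (-0.71, adjusted p = 0.00622). Gnl3l was the gene that was higher (0.32, adjusted p = 0.0389). Of 79 cytosolic ribosomal protein genes, 43 were lower (54.4%) and 0 higher, with a median of -0.36. With the length and GC correction these medians moved nearer to 0, to -0.16 for the further pathway genes and to -0.13 for the ribosomal proteins. Of the ribosomal proteins, 31 were then lower and 3 higher, where 12.8% of all genes were lower and 15.1% higher. Myc was at 227, 213 and 235 CPM in the controls and at 142, 148 and 135 after knockdown (-0.67, SE 0.07, adjusted p = 0.00202), and was lower in 6 of 6 fits with 1 library dropped. Its partner Max did not pass (-0.29, adjusted p = 0.0762). Of the 12 listed genes of the MYC and MAX network, Myc was the 1 that was lower, and 3 were higher, named here after their values were seen. These were the MYC antagonists Mxi1 (0.51, adjusted p = 0.00872, higher in 5 of 6 fits with 1 library dropped), Mxd3 (0.48, adjusted p = 0.0447, 1 of 6) and Mxd4 (3.41, adjusted p = 0.0372, 2 of 6), the last with counts of 16, 0 and 21 against 42, 95 and 145. The antagonists Mxd1 (0.32, adjusted p = 0.0533) and Mnt (0.11, adjusted p = 0.371) did not pass. Whether Myc has a part in the members' levels was not tested.

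**Figure D5:**
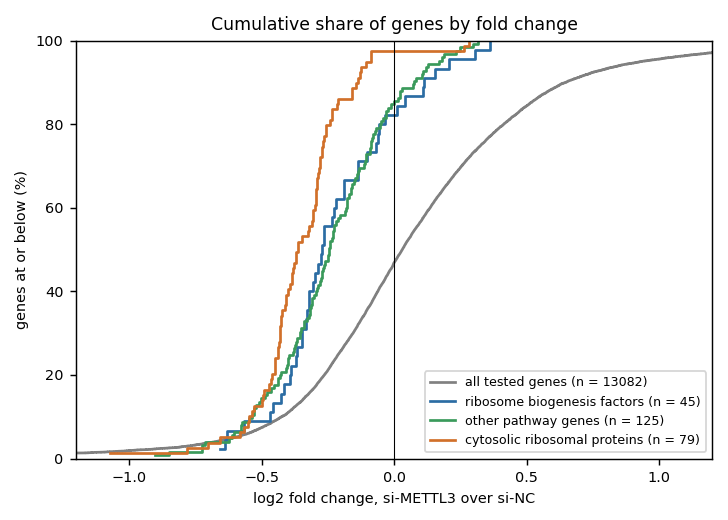
Cumulative share of genes (vertical axis, %) at or below a log2 fold change of si-METTL3 over si-NC (horizontal axis), for the 45 members, 125 other pathway genes, 79 cytosolic ribosomal proteins and all 13082 tested genes. The curves of the 3 lists lie to the left of the curve of all genes over most of their range, with medians of -0.27, -0.25 and -0.36 against 0.03.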

How the data were processed

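The authors deposited gene counts and FPKM values for mRNA and lncRNA. The tools named per the submitters' processing notes are RSEM, StringTie, Bowtie2 and fastp, and the build is mm9, with roles and versions not given in the sources used here. The authors' deposited table also gives log2 fold changes and p-values. The counts were tested with edgeR 4.0.16 (TMM scaling, filterByExpr, quasi-likelihood test, Benjamini-Hochberg over all tested genes, threshold 0.05) in R 4.3.3, with group as the only term. A log2 change is si-METTL3 minus si-NC. Levels are CPM with TMM library sizes. Alternatives used DESeq2 1.42.0, limma 3.58.1, FPKM with pseudocounts of 1 and 0.1, and each library left out. Transcript features and gene positions came from GENCODE M21 (GRCm38), and none were converted from mm9. All 45 members are named. The members, lists and tests were chosen with earlier results of these data known. Tested on simulated data for this comparison (13082 genes), the fit found 0% of 67 genes changed 1.25-fold and 10.4% of 67 changed 1.5-fold. It found 53.0% of 66 changed 2-fold, and 2.33% of its calls were false. Far more genes passed in the data (2468), and the adjusted p depends on that number, so these shares do not carry over to the data.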

Additional observations from a re-analysis of the deposited data

How the results depend on the processing

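Members lower numbered 17 by DESeq2 (10.9% of all genes lower) and 13 on FPKM with either pseudocount (10.8 and 10.7%). They numbered 15 with DESeq2 size factors (11.4%), total count scaling (10.6%), limma-voom (10.2%) or no filter (7.09%). Leaving out 1 library gave 4 to 26 members lower and 0 to 2 higher, 8 to 63 wider pathway genes lower and 0 to 3 higher, 5 to 69 ribosomal protein genes lower, and 665 to 4917 genes in all. Of all genes, 2.63 to 18.9% were lower and 2.36 to 17.9% higher in those fits. With the replicate number as a block, 1273 genes passed (5.43% of all genes lower, 4.3% higher) against 2468. In that fit 12 members, 24 wider pathway genes and 25 ribosomal protein genes were lower, with 0 wider pathway genes higher. No filter also left 0 wider pathway genes higher. Same-numbered libraries had correlations of 0.23, 0.27 and -0.43 in their deviations. Deviations from a mean of 3 libraries are tied to each other, so these values cannot show whether same-numbered libraries were prepared together. Correcting for length and GC content gave 1 member higher (Ddx18) alone (15.1% of all genes higher) and with the block (13.1%). With the block and this correction the members' median was -0.21. The correction on the principal transcript was added after the data were seen, because longest transcripts such as that of Nop58 can hold intron sequence. It gave 20 members lower and 1 higher, where 13.1% of all genes were lower and 15% higher. The length and GC correction also gave 3 ribosomal protein genes higher, alone and with the block, and 1 on the principal transcript. In these 3 fits the median was -0.13, -0.13 and -0.13 for ribosomal protein genes and -0.16, -0.16 and -0.17 for the wider pathway, and Mnt, which did not pass, was at -0.010, -0.0092 and -0.014. Among members, signs turned only in those that did not pass. Nop58 came to -0.28 with the length and GC correction, with or without the block. Gnl3 came to 0.041, 0.048 with the block and 0.018 on the principal transcript. Heatr1 was at 0.017 on FPKM with either pseudocount, Utp14a at -0.00070 with no filter and -0.0027 by DESeq2, and Ncl at 0.0027 by limma-voom and 0.034 and 0.035 on FPKM. With 1 library left out, log2 changes ranged from -0.11 to 0.39 for Nop58, -0.089 to 0.0070 for Heatr1, -0.51 to 0.14 for Mphosph10, -0.10 to 0.12 for Utp14a, -0.019 to 0.087 for Nat10, -0.30 to 0.37 for Ncl and -0.18 to 0.11 for Gnl3. The promoter share of CACGTG was 5% in the 250 bases before the start alone. Except where the setting itself uses fewer libraries or bases, the cause was not tested. Of simulated 1.5-fold changes 10.4% were found, but fewer genes were changed there than passed in the data, so that share does not describe this fit. Members that did not pass may still differ.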
